A study of Rattus norvegicus with 180 samples.

Results

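The miR-30 family was followed through 55 organs of the male rat. Its members on the array were 6 mature miRNAs of 717 in all, namely the guide strands rno-miR-30a, rno-miR-30b-5p, rno-miR-30c, rno-miR-30d and rno-miR-30e, and rno-miR-30b-3p, the other arm of the miR-30b precursor. The species prefix is left out from here on. They are a list of names, applied without a threshold on any measured value, and all 6 were found. The animals were 6 Sprague-Dawley rats aged 10 weeks. In 3 of them the tissue was collected after perfusion with saline, and 55 organs were measured in each. From the other 3 rats, which received no perfusion, 5 organs were measured, namely lung, liver and kidney together with cardiac atrium and interventricular septum of the heart, on 15 arrays. No disease model, drug or transgene was involved.

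A miRNA precursor folds into a hairpin from which a duplex of both arms is cut. One strand, the guide, is loaded into an Argonaute protein and pairs with messenger RNAs mainly through its seed, bases 2 to 8 from the 5′ end, and the other strand, the passenger, is mostly degraded. Members of a family share the seed and can therefore recognise overlapping sets of targets, so that their separate genes allow the same seed to be supplied at different levels in different tissues. The miR-30 family is known for its abundance in kidney podocytes, heart and adipocytes.

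RefSeq sequences were matched by name to 3 of the 6 members, and to 3 of the 5 passenger strands of the family on the array. They are given for rat assembly GRCr8, 5′ to 3′, with the seed in capitals. The guides are shown because they have 1 seed in common and differ only beyond it.

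miR-30a: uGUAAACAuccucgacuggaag
miR-30e: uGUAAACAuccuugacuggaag
miR-30c: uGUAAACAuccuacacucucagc

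The guide miR-30a lies at chr9:33233946-33233967 on the plus strand and miR-30e at chr5:139637504-139637525 on the minus strand. miR-30c is made from 2 genes, Mir30c1 at chr5:139634505-139634527 on the minus strand and Mir30c2 at chr9:33253695-33253717 on the plus strand, with the same mature guide. Counting from the 5′ end, with the base of miR-30a first, miR-30e differed from miR-30a by 1 substitution, C13U. Over the 22 positions that they share, miR-30c differed from miR-30a by 5 substitutions, C13A, G14C, G18C, G19U and A20C. The hairpins of Mir30a and Mir30c2 are separated by 19.7 kb on chromosome 9, and those of Mir30e and Mir30c1 by 2.9 kb on chromosome 5. Both Mir30e and Mir30c1 lie within Nfyc, a gene for a subunit of the transcription factor NF-Y, whereas Mir30c2 overlaps a long noncoding RNA and a pseudogene and Mir30a overlaps no other gene of the annotation.

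The passenger strands tell these genes apart where the guide cannot, and the following ones are shown because they are referred to below.

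miR-30a*: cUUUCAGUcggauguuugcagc
miR-30c-1*: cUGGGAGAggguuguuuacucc
miR-30c-2*: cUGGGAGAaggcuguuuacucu

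The hairpin of Mir30a, at chr9:33233941-33234011 on the plus strand, shows how both strands stand in 1 precursor, with the guide and the passenger in capitals.

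Mir30a hairpin: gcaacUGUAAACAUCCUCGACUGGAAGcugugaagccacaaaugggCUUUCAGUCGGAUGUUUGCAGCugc

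Levels are given as scaled signal, a fluorescence intensity brought to a common scale across arrays, on which the 75th percentile of the miRNAs detected on every array is 2118 on average. Probes differ in brightness, so levels were compared between organs for 1 miRNA, and ratios of miRNAs are read for how they vary over organs or, for the arms of miR-30b, as ratios of signals. Detection on an array meant that more than 50% of the spots used for that miRNA were well above background. Between 86 and 244 miRNAs were detected per array. The 3 pancreas arrays stood apart, since their 75th percentile before scaling was 68.0 to 121 against at least 336 on every other array, and 86 to 108 miRNAs were detected there. Pancreas levels were therefore multiplied by the largest factors. The tissue labels were checked with 13 marker miRNAs. Each of them was detected on every array of the organs it marks and stood there above its median in the other organs, for example miR-122 of hepatocytes at 98773 or more in liver against a median of 1.27 elsewhere. No array outside liver reached that level. The check was weaker for miR-200c of epithelium and miR-145 of smooth muscle. For these, 42 and 16 arrays of other organs were above the lowest value in the organs marked. The intestinal samples were scraped mucosa. Since every sample was bulk tissue, a lower level through fewer cells of a type cannot be told apart from less of the miRNA per cell.

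The guides were common to all organs. miR-30a, miR-30d and miR-30e were detected on every array of the perfused rats, and miR-30b-5p and miR-30c on every one outside pancreas. By contrast miR-30b-3p was detected on 11 of these arrays, and lung was the sole organ with all 3 arrays detected.

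**Figure D1:**
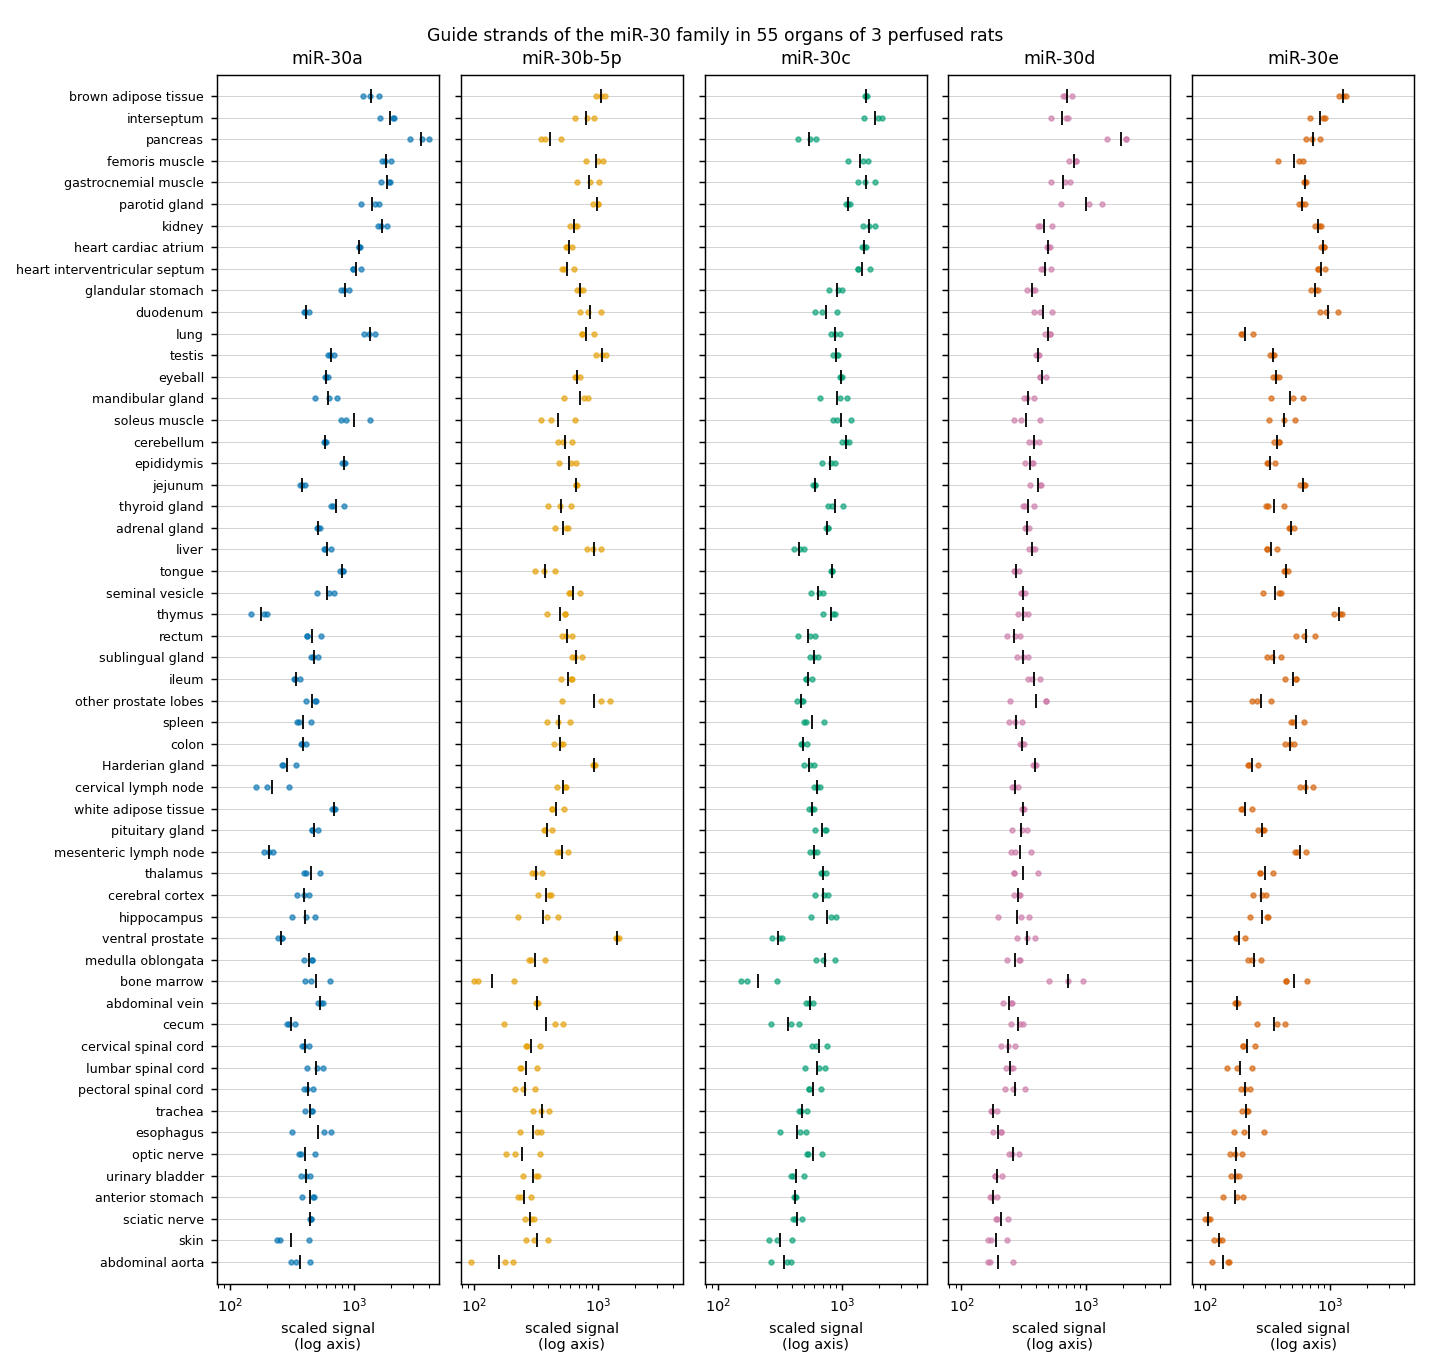
Scaled signal (log axis) of the 5 guides in 55 organs. Points are the 3 perfused rats, black ticks are their means, and organs are ordered by the mean of the 5 guides after centring each on its own mean; brown adipose tissue, with a mean of 1287 for miR-30e, is at the top and abdominal aorta at the bottom.

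All 5 guides differed between organs, and their levels varied less than those of most miRNAs. In a limma fit over the 55 organs the adjusted p was 5.8e-61 for miR-30a, 2.1e-37 for miR-30b-5p, 2.3e-48 for miR-30c, 1.2e-43 for miR-30d and 1.6e-60 for miR-30e. This separates the family from little else, as 99.7% of the 345 miRNAs tested passed it. The SD of the log2 organ means was 0.88 for miR-30a, 0.86 for miR-30e, 0.73 for miR-30b-5p, 0.67 for miR-30c and 0.64 for miR-30d. Without pancreas it was 0.81 for miR-30a, 0.86 for miR-30e, 0.73 for miR-30b-5p, 0.67 for miR-30c and 0.55 for miR-30d, so that miR-30e and not miR-30a varied most. The median of this SD was 1.05 over all 345 miRNAs and 1.14 over 144 common miRNAs, those with detection on at least 50% of the arrays of perfused rats. Counted from the least variable of these 144, with pancreas included, miR-30d stood at place 17, miR-30c at 19, miR-30b-5p at 22, miR-30e at 35 and miR-30a at 38. Within an organ the log2 values of the 3 rats varied with a pooled SD of 0.19 to 0.28 for the 5 guides.

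The order of organs, by the mean of log2 signals, differed from guide to guide. miR-30a had its highest level in pancreas, at 2852, 3542 and 3995 in the 3 rats, where the scaling factors are largest. Its 2 probe sequences departed there by 1.40 log2 units from their usual ratio, so this level depends on the probe. Interseptum came next, at 1936 ± 281 (SD, n = 3), then gastrocnemial muscle at 1837 ± 172, femoris muscle at 1823 ± 160 and kidney at 1677 ± 141. From interseptum to kidney each of these organs overlapped the next over the rats, whereas pancreas stood clear of interseptum. Further down the order, lung and cerebellum also stood clear of the organ below. The lowest levels of miR-30a were in thymus, at 179 ± 26.4, mesenteric lymph node, at 206 ± 18.4, and cervical lymph node, at 220 ± 70.6, which also overlapped. The organ means of miR-30a ranged over 19.3-fold, and over 10.8-fold without pancreas.

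miR-30b-5p was highest in ventral prostate, at 1400, 1436 and 1480 in the 3 rats, with no overlap with testis, the second, at 1072 ± 94.2. Brown adipose tissue followed at 1051 ± 88.9, parotid gland at 978 ± 49.7 and femoris muscle at 972 ± 150, and these overlapped. The lowest levels of miR-30b-5p were in bone marrow, at 141 ± 62.8, abdominal aorta, at 160 ± 58.2, and optic nerve, at 246 ± 85.5. In ventral prostate, where miR-30b-5p was highest, miR-30a was at 258 ± 12.5 and miR-30c at 308 ± 28.9, ranks 52 and 54 of 55.

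miR-30c was highest in interseptum, at 1853 ± 301, kidney, at 1663 ± 192, gastrocnemial muscle, at 1580 ± 257, brown adipose tissue, at 1558 ± 29.9, and heart cardiac atrium, at 1518 ± 59.8. All of these overlapped their neighbours in the order. Bone marrow was lowest for miR-30c too, at 303, 156 and 173 in the 3 rats, and overlapped ventral prostate, the next. There the 2 probe sequences of miR-30c departed by 1.31 log2 units from their usual ratio, the largest departure of any organ, so the level in bone marrow depends on the probe.

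miR-30d varied least. After pancreas, at 1486, 2118 and 2123, its highest levels were in parotid gland, at 1014 ± 359, femoris muscle, at 798 ± 60.1, brown adipose tissue, at 708 ± 63.7, and bone marrow, at 722 ± 221. Bone marrow thus held rank 5 of 55 for miR-30d and rank 55 for miR-30b-5p and miR-30c. The organ means of miR-30d ranged over 10.46-fold, or 5.37-fold without pancreas, and the lowest were in anterior stomach, at 180 ± 11.4, trachea, at 180 ± 10.8, and skin, at 190 ± 37.1.

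miR-30e was highest in brown adipose tissue, at 1294, 1201 and 1365 in the 3 rats, and thymus, at 1222, 1257 and 1080, which overlapped. Duodenum followed at 977 ± 171, heart cardiac atrium at 887 ± 29.2 and heart interventricular septum at 845 ± 66.5. Thymus was therefore rank 2 for miR-30e and rank 55 for miR-30a, the guide that differs from it by a single base. The lowest levels of miR-30e were in sciatic nerve, at 105 ± 4.16, and skin, at 128 ± 9.55. Sciatic nerve overlapped no other organ.

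Each guide was centred on its own mean over organs to see where the family was high or low as a whole. In 11 organs all 5 guides were above their own mean, and in 13 organs all 5 were below it. In pancreas, on dim arrays, miR-30b-5p missed detection in rats 5 and 6 and miR-30c in rat 6. There the 5 guides averaged 1.08 log2 units above their means, with 3 of the 5 above. Elsewhere they averaged 1.28 log2 units above their means in brown adipose tissue, 1.19 in interseptum, 1.07 in femoris muscle, 1.07 in gastrocnemial muscle, 1.04 in parotid gland and 0.96 in kidney. At the other end they averaged -1.12 in abdominal aorta, -1.02 in skin, -0.87 in sciatic nerve, -0.81 in anterior stomach and -0.76 in urinary bladder. In the remaining 31 organs the guides lay on both sides. Thymus, at 3.35 log2 units between miR-30e and miR-30a, was the organ in which the centred guides lay farthest apart, followed by pancreas at 2.94, bone marrow at 2.90 and ventral prostate at 2.70.

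Organs or classes of organs were then compared with the mean of all other organs in the same limma fit. A miRNA was called where the adjusted p was below 0.05 and the difference was at least 2-fold, that is 1 log2 unit. The p-values rest on the spread between rats within organs, not on the spread between organs of a class. As each comparison uses all other organs as its reference, the 12 comparisons share most of their arrays.

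**Figure D2:**
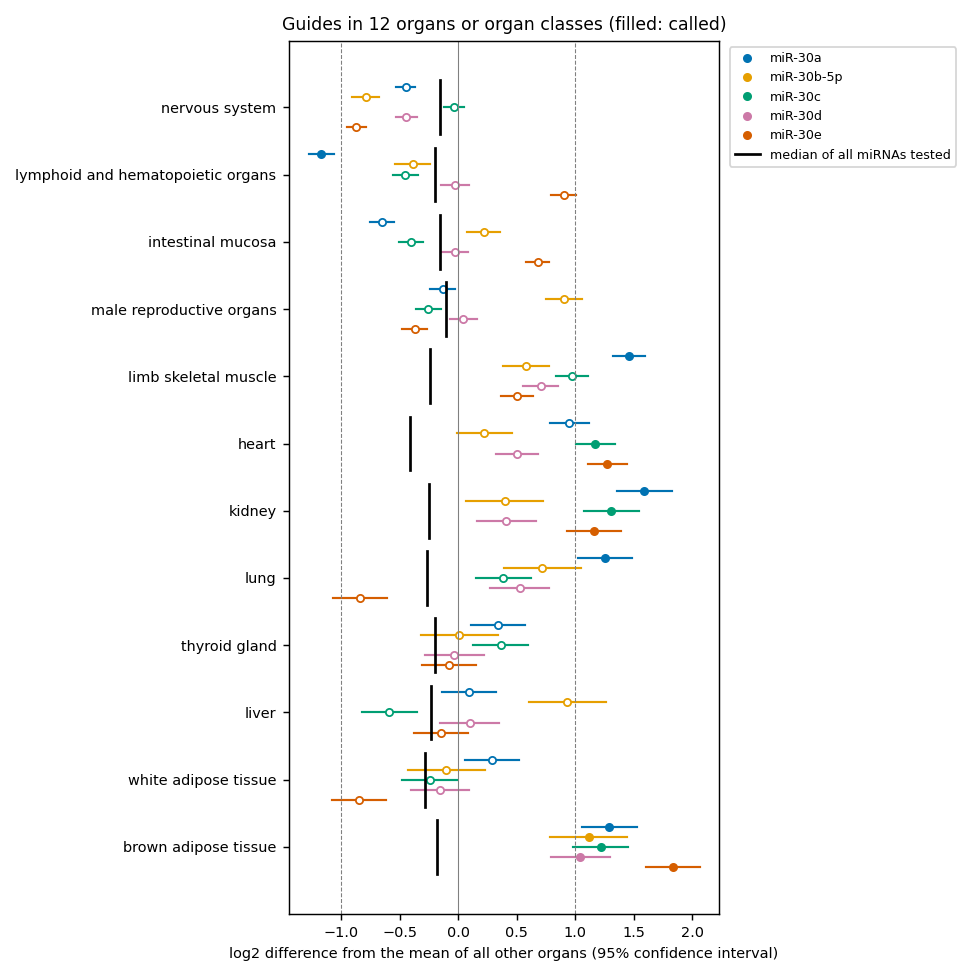
Difference in log2 signal of the 5 guides between each of 12 organs or organ classes and the mean of all other organs, with 95% confidence intervals. Filled points passed both limits of the call, dashed lines mark 2-fold and black bars the median of all 345 miRNAs tested; all 5 guides are filled in brown adipose tissue, at 1.04 to 1.83.

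Brown adipose tissue, the organ of heat production by mitochondrial uncoupling, was higher in all 5 guides. The log2 difference was 1.83 (SE 0.12, adjusted p 2.1e-28, limma) for miR-30e, a 3.57-fold higher level. It was 1.29 (SE 0.12) for miR-30a, 1.22 (SE 0.12) for miR-30c, 1.12 (SE 0.17) for miR-30b-5p and 1.04 (SE 0.13) for miR-30d. All 3 rats were above the median of the other organs for every guide. The median of the 5 guides was 1.22 and that of all 345 miRNAs -0.18. Of all miRNAs tested, 9.86% were called higher in brown adipose tissue. The passenger strands miR-30a*, at 1.14 (SE 0.13), and miR-30e*, at 1.35 (SE 0.13), were called as well. Markers of other tissues in the 3 samples were low for miR-133a of striated muscle, at 2.30 to 15.9 with no array detected, and the endothelial miR-126 was at 3233 to 3626 against a median of 574 outside lung. The paper lists brown adipose tissue, after the lymph nodes, spleen and thymus, among the organs high in miR-150. The part of endothelium or of lymphoid cells in the result was not tested. Without rat 6, miR-30d was at 0.99 and was no longer called. With quantile normalization or normexp background correction 3 guides were called, and miR-30e alone when the median over all spots replaced the mean over probes.

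White adipose tissue stores lipid. No guide was called there, where 22.3% of all miRNAs were called in either direction. With the 75th percentile over all miRNAs and in the authors' table a guide was called, and the median of the guides moved from -0.15 to 0.82 and 0.73. miR-30e was at 235, 196 and 194 in the 3 rats, lower by 0.84 log2 units than the mean of the other organs, which missed the 2-fold limit and turned to a difference of 0.13 with the 75th percentile over all miRNAs and 0.04 in the authors' table. Every rat's miR-30e in brown adipose tissue was at least at 1201, so the rats of both tissues did not overlap. This difference was not tested. For miR-30a the white tissue was at 689 ± 23.2 and the brown at 1375 ± 209.

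The kidney, where miR-30 members are known from podocytes and tubules, was higher in 3 guides. The log2 difference was 1.59 (SE 0.12, adjusted p 1e-23, limma) for miR-30a, 1.31 (SE 0.12) for miR-30c and 1.16 (SE 0.12) for miR-30e. miR-30b-5p, at 0.40 (SE 0.17), and miR-30d, at 0.41 (SE 0.13), missed the 2-fold limit. With the 75th percentile over all miRNAs all 5 guides were called. Of all miRNAs tested, 6.38% were called higher in kidney. The passenger strands miR-30a*, at 1.42 (SE 0.13), and miR-30c-2*, at 1.13 (SE 0.12), were called too. Both come from the chromosome 9 genes. With the median over all spots miR-30c was at 0.84 and with normexp miR-30e at 0.94, and these calls were lost. The difference of miR-30c-2* turned to -0.23 with normexp background correction and to -0.05 with a floor 4 times as high. Its level in kidney was 36.3 ± 3.73, and the floor, to which lower values were raised, was 10.8.

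Striated muscle was compared as limb muscle and heart. In limb skeletal muscle (femoris, gastrocnemial and soleus) miR-30a was called higher, at 1.46 (SE 0.07, adjusted p 1.2e-39, limma), a 2.76-fold higher level. miR-30c, at 0.97 (SE 0.07), lay just under the limit, and miR-30d, at 0.71, miR-30b-5p, at 0.58, and miR-30e, at 0.51, were smaller. Of all miRNAs tested, 10.7% were called higher in limb muscle. All 9 arrays were above the median of the other organs for miR-30a and miR-30c. Soleus, a postural muscle with many slow fibres, was at 997 ± 299 for miR-30a and the other 2 muscles at 1823 and 1837. The number of guides called was 2 without rat 4, with scan day as a term or without the 8 arrays with 2 rat numbers, because miR-30c then passed the limit. These 8 include an array of each limb muscle.

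In the heart (cardiac atrium and interventricular septum) miR-30e was called higher, at 1.28 (SE 0.08, adjusted p 4.1e-28, limma), and miR-30c, at 1.17 (SE 0.08). miR-30a, at 0.95 (SE 0.08), was under the limit and reached 1.00 without pancreas, and miR-30d was at 0.50 (SE 0.09). Of all miRNAs tested, 5.8% were called higher in heart. The difference of miR-30b-5p was 0.22, with a 95% confidence interval of -0.01 to 0.46. Thus miR-30a had the largest estimate in limb muscle and miR-30e in heart. The passenger strand miR-30e*, at 1.27 (SE 0.10), was called in heart, and both miR-30a*, at 2.06 (SE 0.07), and miR-30e*, at 1.44 (SE 0.08), in limb muscle. With the 75th percentile over all miRNAs or in the authors' table all 5 guides were called in heart and 4 in limb muscle. The sizes depended on the scaling too. The median of the 5 guides in heart moved from 0.95 to 2.42 and 2.12 in turn, and in limb muscle from 0.71 to 1.14 and 1.16.

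In lung miR-30a and miR-30e lay on opposite sides of the mean of the other organs. miR-30a was called higher, at 1.26 (SE 0.12, adjusted p 1.3e-17, limma), with 1332, 1206 and 1473 in the 3 rats. miR-30e was lower by 0.84 log2 units (SE 0.12), under the 2-fold limit, with 197, 192 and 240, all below the median of the other organs. With the 75th percentile over all miRNAs miR-30e turned to 0.35 and the other 4 guides were called higher. With the median over all spots the call of miR-30a was lost, at 0.82, and miR-30e, at -1.23, was called lower. In the authors' table and with quantile normalization 2 guides were called higher. Of all miRNAs tested, 9.28% were called higher in lung. The passenger strands had the signs of their guides, miR-30a* at 1.15 (SE 0.13), which was called, and miR-30e* at -0.50 (SE 0.13), which was not.

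In the lymphoid and hematopoietic organs, that is thymus, spleen, bone marrow and 2 lymph nodes, the same 2 guides differed in the opposite sense. miR-30a was called lower, at -1.17 (SE 0.05, adjusted p 1.4e-40, limma), and its mean was below the median of the other organs in 5 of 5 organs. These means ran from 179 in thymus to 387 in spleen and 496 in bone marrow, close to that median of 506. For miR-30a, 1 of 15 arrays was above the median. miR-30e was higher by 0.90 (SE 0.05) in 5 of 5 organs and 15 of 15 arrays, just under the limit. miR-30c, at -0.45, miR-30b-5p, at -0.39, and miR-30d, at -0.03, were in between. Of all miRNAs tested, 15.9% were called lower and 15.7% higher in these organs. miR-142-3p, the leukocyte marker, was at 11169 to 37355 on these 15 arrays against a median of 116 elsewhere, and its part in the result was not tested. With normexp background correction miR-30a was at -0.93 and no guide was called.

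The intestinal mucosa showed the same pair apart, at smaller size. miR-30a differed by -0.65 (SE 0.05) and was below the median of the other organs in 6 of 6 organs, while miR-30e differed by 0.68 (SE 0.05) and was above it in 6 of 6. No guide reached the 2-fold limit, where 31.3% of all miRNAs were called in either direction. miR-30b-5p was at 0.22 (SE 0.07) and turned to -0.27 in the authors' table. There the comparison shifted by a median of -0.34 log2 units over the 344 miRNAs shared. Duodenum was the highest of the 6 for miR-30e, at 977 ± 171, and cecum the lowest, at 359.

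In the male reproductive organs miR-30b-5p stood out, at 0.90 (SE 0.08), with all 5 organs above the median of the others. This stayed under the 2-fold limit, and 22.9% of all miRNAs were called in either direction. miR-30e, at -0.37, miR-30c, at -0.25, and miR-30a, at -0.13, were on the other side. miR-30d was at 0.05 (SE 0.06), and its sign turned in 3 of the other scalings.

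In the nervous system (10 organs from cerebral cortex to sciatic nerve) no guide was called, while 40.0% of all miRNAs were called in either direction. miR-30e, at -0.87 (SE 0.04), and miR-30b-5p, at -0.79 (SE 0.06), were below the median of the other organs in 10 of 10 organs. miR-30a and miR-30d were at -0.45 and -0.44, and miR-30c at -0.04 with a 95% confidence interval of -0.12 to 0.05. The size of these differences depended on the scaling, and 4 guides were called lower with the 75th percentile over all miRNAs and in the authors' table. The median of the guides moved from -0.45 to -1.21 in the former and -1.02 in the latter. Over all shared miRNAs the comparison shifted by a median of -0.62 and -0.42 in turn, so part of this move was common to other miRNAs. Cerebellum was the highest of the 10 organs for all 5 guides, for example at 1080 ± 76.0 for miR-30c.

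Liver and thyroid gland gave no call. In liver, where 29.0% of all miRNAs were called in either direction, miR-30b-5p was at 0.93 (SE 0.17) and miR-30c at -0.59 (SE 0.12), on opposite sides. miR-30b-5p passed the 2-fold limit in liver, at 1.05, without rat 4, and at 1.00 with the not perfused arrays added. It was also called there with the 75th percentile over all miRNAs, at 1.14, in the authors' table, at 1.15, with quantile normalization, at 1.16, and with the median over all spots, at 1.67. In thyroid gland, where 16.5% of all miRNAs were called, the differences ran from -0.08 for miR-30e to 0.37 for miR-30c. Both reversed under alternatives, miR-30e to 0.67 with the 75th percentile over all miRNAs, where 2 guides were called higher, and miR-30c to -1.01 with the median over all spots, where it was called lower.

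The ratio of guides within an array does not depend on the scaling factor of the array, and it was used to ask whether the members move as 1 unit. For all 10 pairs the log2 ratio differed between organs more than between rats, each with a permutation p of 1e-05, which is the smallest that 100000 resamples can give, and an adjusted p of 1e-05. The SD of the ratio over organs was 2.26 to 4.97 times its SD within organs. The SD over organs was largest for miR-30a to miR-30e, at 0.98 log2 units against 0.20 within organs, and smallest for miR-30a to miR-30d, at 0.61. Without pancreas it was still largest for miR-30a to miR-30e, at 0.96, but smallest for miR-30a to miR-30c, at 0.56. The ratio of miR-30a to miR-30e was highest in lung, at 2.62 to 2.76 over the 3 rats, and lowest in thymus, at -2.86 to -2.66. Between these organs it changed 42.5-fold. Only differences of such ratios between organs are meaningful, since the probes differ in brightness. The bases of the array probes were not used here, so how far a probe for 1 guide also binds another was not tested.

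**Figure D3:**
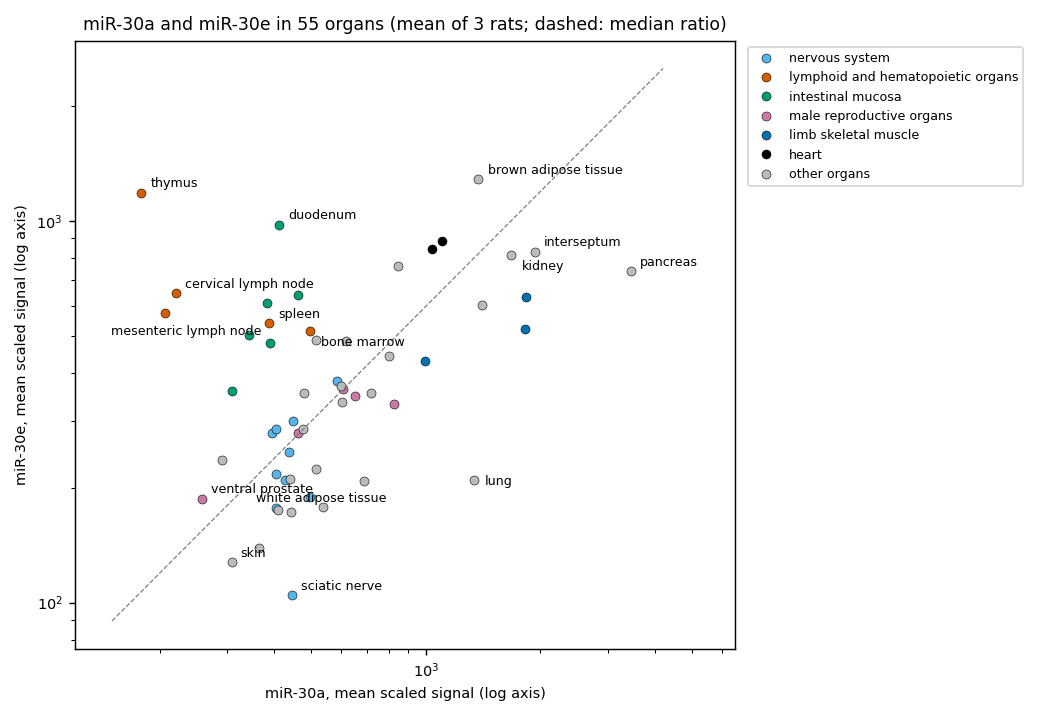
Mean scaled signal of miR-30a and miR-30e (log axes) in 55 organs, n = 3 rats each, coloured by organ class; the dashed line is the median ratio. Lymphoid organs and intestinal mucosa lie above the line, and lung, limb muscle and sciatic nerve below it, with thymus at 179 and 1186 and lung at 1337 and 210.

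miR-30b-5p was highest relative to each of the other 4 guides in ventral prostate. There the log2 ratio of miR-30b-5p to miR-30e was 2.95 and that of miR-30a to miR-30b-5p -2.48. Pancreas aside, miR-30b-5p was lowest relative to miR-30a, miR-30d and miR-30e in bone marrow and relative to miR-30c in heart cardiac atrium. Correlations of the log2 organ means, given as a description over 55 organs that share animals and scaling, ran from 0.32 for miR-30a with miR-30b-5p to 0.72 for miR-30a with miR-30d. Without pancreas they ran from 0.34 for miR-30a with miR-30e to 0.73 for miR-30a with miR-30c.

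Outside the family, the miRNAs closest in organ pattern were sought among 137 common miRNAs, by Pearson's r of log2 means over 55 organs. miR-30a was most like miR-22 (r = 0.61), miR-378* (0.49) and miR-126* (0.46), of which miR-126* was at rank 6 without pancreas. miR-30b-5p was most like miR-26b (0.56), miR-362* (0.45) and miR-2985 (0.41). Without pancreas miR-362* was at rank 8 and miR-2985 at rank 2, with r = 0.53. miR-30c was most like miR-22* (0.45), miR-22 (0.45) and miR-29c* (0.44), which held the first 3 ranks without pancreas as well, in another order. For miR-30d they were miR-2985 (0.69), miR-3085 (0.69) and miR-702-3p (0.69), which fell to 0.56, 0.56 and 0.55 without pancreas. For miR-30e they were miR-1949 (0.63), miR-378 (0.57) and miR-186 (0.57), and without pancreas miR-378 was at rank 4 and miR-186 at rank 5. In the paper's summary over all arrays, miR-2985, miR-3085 and miR-702-3p had closely similar distributions of signal. How far the scaling factor shared by the miRNAs of an array entered these correlations was not tested.

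The passenger strands differed in how often they were detected. miR-30a* was detected on 160 arrays of perfused rats, miR-30e* on 159, miR-30c-2* on 77, miR-30c-1* on 10 and miR-30d* on 1. Over 55 organs miR-30a* followed miR-30a with r = 0.83, and with 0.91 without pancreas. miR-30c-2*, whose gene lies 19.7 kb from Mir30a, had r = 0.86 with miR-30a, and 0.89 without pancreas. With its own guide miR-30c it had r = 0.48, and 0.76 without pancreas, so that this value rests on the pancreas arrays. miR-30e* had r = 0.62 with miR-30e and 0.81 with miR-30c, and without pancreas 0.71 and 0.84, as values without a test of the difference.

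miR-30a* fell in the lymphoid organs with its guide, at -1.63 (SE 0.06, adjusted p 3.8e-51, limma), and it was at 19.0, 20.7 and 14.5 in thymus against 307, 325 and 464 in femoris muscle. The difference was -0.93 with a floor 4 times as high and -0.60 with normexp background correction, and was then not called. miR-30c-1*, from the gene next to Mir30e, was detected on all 3 arrays in just 2 organs, thymus and mesenteric lymph node. It was at 67.3, 61.6 and 48.2 in thymus, at 83.8, 28.9 and 95.9 in bone marrow and at 20.9, 28.1 and 26.9 in mesenteric lymph node. In the other organs it was mostly under the floor, as were 146 of its values on arrays of perfused rats. As it passed the filter on low values through thymus and mesenteric lymph node, which belong to the lymphoid organs, its levels are given as a description with no test. miR-30c-2* was at 3.19 in thymus, not well above background on any array. In pancreas miR-30c-1* had a scaled mean of 192, on dim arrays on which its 4 probe sequences departed by up to 3.91 log2 units from their usual ratio.

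**Figure D4:**
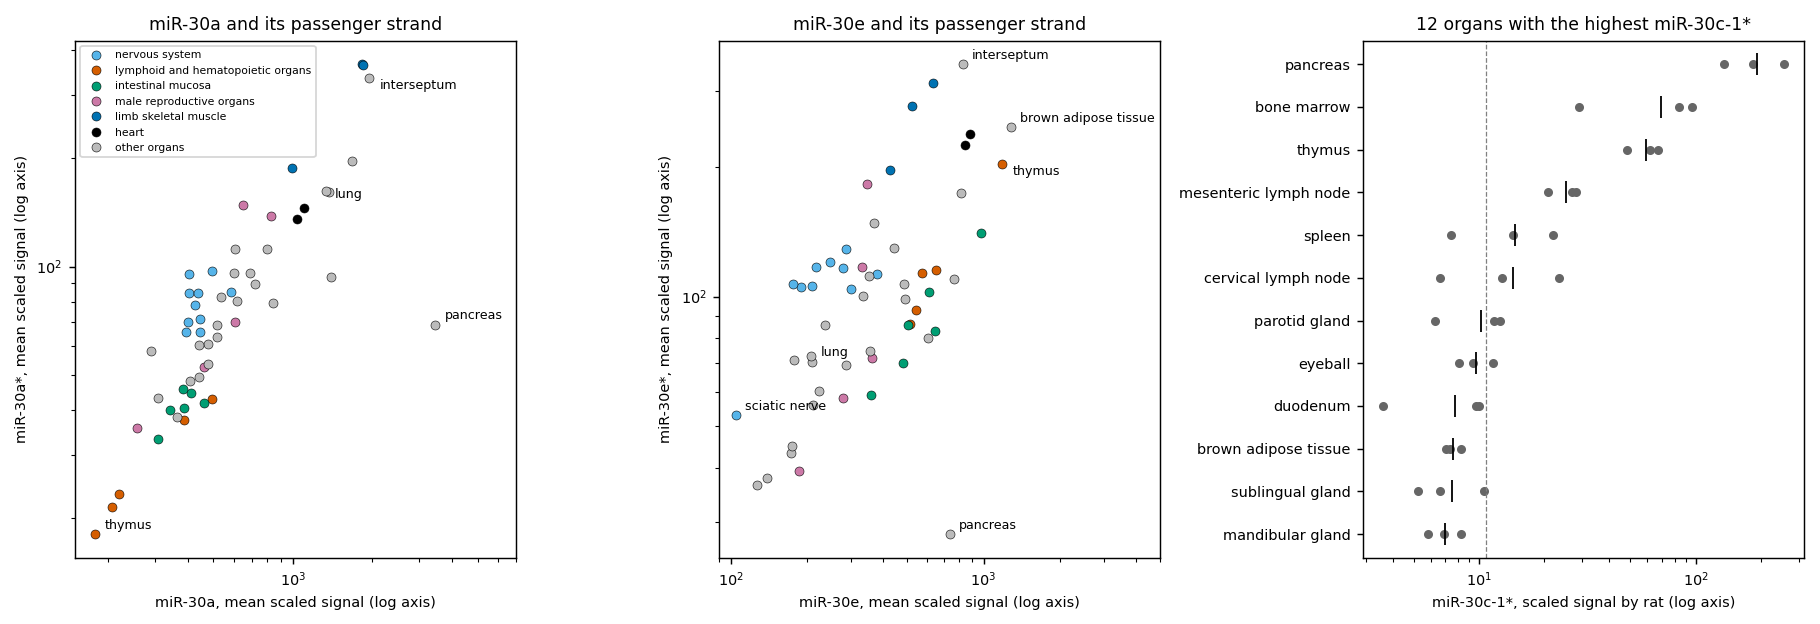
Left and middle, mean scaled signal (log axes) of miR-30a and miR-30e against their passenger strands in 55 organs, n = 3 rats each, coloured by organ class. Right, miR-30c-1* in the 12 organs with its highest means, with points for rats, ticks for means and the floor of 10.8 as a dashed line; the 5 lymphoid and hematopoietic organs are among the 6 highest.

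The arm ratio of miR-30b was measured on all 3 arrays in lung alone. There miR-30b-5p was at 749, 742 and 926 and miR-30b-3p at 7.64, 7.84 and 7.34 in the 3 rats. The signal of miR-30b-5p was 98.1, 94.6 and 126 times that of miR-30b-3p, a mean log2 ratio of 6.72. This size depends on the background handling, as the mean log2 ratio was 3.37 with normexp background correction and 5.87 with the median over all spots. Since the probes of both arms may differ in brightness, this is a ratio of signals and not of molecules. On the 8 other arrays with miR-30b-3p detected, from sublingual gland, cecum, Harderian gland, cerebellum, medulla oblongata and brown adipose tissue, the ratio ran from 11.1 in cecum to 181 in sublingual gland. The 75th percentile before scaling was 1269 to 6343 on the 11 arrays with miR-30b-3p detected, with a median of 3798, and up to 6087 on the other arrays of perfused rats, with a median of 1762. Both kinds of array thus overlapped in brightness. The lung arrays were at 6343, 5029 and 5322, the first being the highest of any perfused array, and miR-30b-3p lay under the floor of 10.8 on each. Whether its detection in lung followed the brightness of the arrays was not tested. In organs where no array detected miR-30b-3p there is only an approximate bound. It was taken against the higher of the lowest detected signal and the signal of miR-30b-3p itself, without the floor of 10.8. Pancreas has none, as miR-30b-5p itself missed detection there in rats 5 and 6. In the other such organs it ran from 4.39-fold in bone marrow to 81.5-fold in adrenal gland. A bound against the floor would be smaller wherever the signal used lay under it. Differences of the arm ratio between organs were not tested, since the test was laid out for organs with all 3 arrays detected and lung was the sole one.

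Perfusion removes blood from an organ before sampling, and the question was whether blood left in the organ changed the family. No guide was called. In the limma test on the means of each rat over 5 organs, 3 perfused against 3 not perfused, the log2 difference of the guides was between -0.05 for miR-30c and -0.02 for miR-30b-5p, with a 95% confidence interval of -0.21 to 0.17 for miR-30b-5p. Of the 191 miRNAs tested, 0.0% were called, and 4 had an unadjusted p below 0.05, none of them in the family. The paper reports the blood miRNAs miR-451 and miR-144 as clear without perfusion and absent after it. Since no miRNA at all was called here, a lack of calls does not show that blood left the guides unchanged. The difference of perfusion between organs was called for 0.0% of the 191 miRNAs, and 8 had an unadjusted p below 0.05, of which miR-30e was 1. In 1 of the 25 combinations of guide and organ the rats of both conditions did not overlap. This was miR-30e in heart cardiac atrium, at 822, 821 and 828 without perfusion and 898, 854 and 910 with it. Over the 25 combinations the differences lay between -0.22 and 0.11 log2 units, with a lowest adjusted p of 0.447 (limma).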

How the data were processed

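Agilent 1-colour miRNA arrays of 6 rats were analysed, 3 perfused and 3 not, with 717 rat miRNAs in the design. Per the file headers and labels, the deposited scanner files hold spot intensity values, background-subtracted by Agilent Feature Extraction 10.7.3, and flags for spots well above background, saturated or outlying. The authors' own table of normalized intensities covers 715 of these miRNAs and was used as an alternative, and its 21 control rows were left out. No column was left without a sample. Outlier spots (1.63 to 6.42% per array) were dropped and no spot was saturated. A miRNA was given the mean of its probe sequences, each the mean of its spots. Each array was scaled to the 75th percentile over 37 miRNAs with detection throughout the 180 arrays, of which 3 belong to the family, values under 10.8 were set to that floor, and log2 was taken. The number of arrays limits the precision.

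Organs were compared with limma 3.58.1 in R 4.3.3 (lmFit and eBayes, 1 term per organ, 110 residual degrees of freedom), with Benjamini-Hochberg adjustment over the 345 miRNAs tested, those that every rat of at least 1 organ showed above background. Perfusion was tested on rat means, its variation between organs with rat as a random block, and guide ratios by permutation of organ labels, two-sided. These steps were tested on simulated data. Arrays with the same number in the title were taken to come from the same rat. The mean correlation of their residuals was 0.05 within a rat (0.03, 0.06 and 0.05 for the 3 perfused rats) and -0.02 between different rats. 8 arrays have labels with 2 rat numbers, rat 5 in the title and rat 6 in the source name. They are medulla oblongata, pituitary gland, the 3 levels of spinal cord, and femoris, gastrocnemial and soleus muscle. The title was followed, and the paper gives the same number. If the source names are right, these organs had fewer than 3 rats. The files used hold no mean spot signal, so normexp, with an offset of 50, used the median spot and background signals. The genes named were the members, their passenger strands, fixed markers, and the 3 most similar miRNAs outside the family per guide. Members, lists and comparisons were chosen with earlier results of these data known. Alternatives changed the scaling, background, floor, summary of spots, filter, block, arrays and call rule.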

Additional observations from a re-analysis of the deposited data

How the results depend on the processing

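Of the values that answer a comparison, 700 held their side or stayed within 1.5 times and 61 moved under the alternatives, and of single members 1299 held, 49 passed the call, 27 lost it and 23 reversed as defined below. Without a limit on size, the number of guides called was 4 lower in the nervous system, 1 higher and 3 lower in lymphoid organs, 2 higher and 2 lower in intestinal mucosa, 1 higher and 3 lower in male reproductive organs, 5 in limb muscle, 4 in heart, 5 in kidney, 4 higher and 1 lower in lung, 2 in thyroid gland, and 1 higher and 1 lower in both liver and white adipose tissue. With a limit of 2 log2 units it was 0 in every comparison. With the 75th percentile over all miRNAs it was 4 lower in the nervous system, 1 higher in lymphoid organs, 4 in limb muscle, 5 in heart, 5 in kidney, 4 in lung, 2 in thyroid gland, and 1 each in liver and white adipose tissue. In the authors' table it was 4 lower in the nervous system, 1 lower in intestine, 4 in limb muscle, 5 in heart, 2 in lung, and 1 each in liver and white adipose tissue. With quantile normalization it was 1 lower in intestine, 2 in limb muscle, 2 in lung, 1 in liver and 3 in brown adipose tissue. In heart the median of the 5 guides then passed the 2-fold limit, at 1.13 in place of 0.95. With the median over all spots it was 3 in limb muscle, 0 higher and 1 lower in lung, 1 lower in thyroid gland, 1 in liver and 1 in brown adipose tissue. With normexp it was 0 lower in lymphoid organs and 3 in brown adipose tissue. In kidney it was 2 in place of 3 with normexp and with the median over all spots. It was 2 in limb muscle with scan day as a term or without the 8 arrays with 2 rat numbers, and 1 in liver with the not perfused arrays. Leaving out each rat in turn gave 1 to 2 in limb muscle, 0 to 1 in liver and 4 to 5 in brown adipose tissue. The log2 arm ratio of miR-30b was 6.41 from the total gene signal, 5.87 with the median over all spots, 3.37 with normexp and 6.20 over organs with at least 1 array.

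The following differences changed sign with an adjusted p below 0.05 in at least 1 of the settings compared. Sign changes with neither below it, of small differences in the nervous system, lymphoid organs, intestinal mucosa, thyroid gland, liver and white adipose tissue, are not listed. In intestinal mucosa miR-30b-5p was -0.12 with the 75th percentile over all miRNAs, -0.19 with quantile normalization, -0.27 in the authors' table and -0.18 with the median over all spots. In male reproductive organs miR-30d was -0.27 with the 75th percentile over all miRNAs, -0.27 with quantile normalization and -0.16 in the authors' table. In kidney miR-30c-2* was -0.23 with normexp and -0.045 with the higher floor. In lung miR-30e was 0.35 with the 75th percentile over all miRNAs and miR-30c -0.12 with the median over all spots. In thyroid gland miR-30d was 0.71 and miR-30e 0.67 with the former, and miR-30c -1.01 with the latter. In white adipose tissue, with the 75th percentile over all miRNAs and in the authors' table in turn, miR-30b-5p was 0.88 and 0.79, miR-30c 0.73 and 0.64, miR-30d 0.82 and 0.73, and miR-30e 0.13 and 0.043, and miR-30d was 0.35 with quantile normalization. The causes were not tested. The paired fit, with a replicate block for the rat, changed no call, and the SD of the miR-30a to miR-30e ratio was 0.98 in it. The pair tests and perfusion results kept their side under every alternative run, and the slide block was not run for the pair permutations. The dim pancreas arrays limit the levels there.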
